A study of Mus musculus with 6 samples.

Results

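Translation initiation factors were taken as the protein-coding genes of the count table whose mouse symbol starts with Eif and a digit from 1 to 6. Of the 47069 genes in the table, 55 met this rule, and 52 of them were among the 14736 genes with enough counts to be tested. The 3 members that were not tested were Eif2s3y, with 0 counts in every library, Eif4e1b, with 1 count in RNA-Best 3 alone, and Eif4ebp3, with 3 to 30 counts per library. The set holds the subunits of the initiation factor complexes and also their regulators, namely the eIF2 alpha kinases and the proteins that bind eIF4E. A further 8 Eif symbols were not protein-coding, being 7 processed pseudogenes and 1 lincRNA, and were left out of the set.

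The libraries were made from poly(A) RNA of LβT2 cells, an immortalized mouse line with features of pituitary gonadotropes, the cells that answer gonadotropin-releasing hormone (GnRH). All 6 libraries came from passage 14 cells given 2 nM GnRH over 40 min, so no untreated cells enter the comparison. In 3 libraries the trypsinized cells were lysed at once (fresh), and in 3 they were kept in the preservation buffer RNA-Best at 4 °C over at least 4 days before lysis. The question was how far transcript levels after this storage match those of fresh cells, and the labels do not say whether the libraries of a group were separate cultures, so that p-values may measure technical spread.

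Total counts were 14477304 to 47438746 in fresh and 4909418 to 11999363 in RNA-Best, so depth differed along with storage. With every library thinned to the smallest total, 10 initiation factor genes were higher and 20 lower, against 12 and 25 at full depth. The calls lost at equal depth were those of Eif1b, at -0.088, Eif1ad, at -0.11, Eif2d, at -0.020, Eif2b1, at -0.14, Eif3e, at -0.088, Eif4b, at 0.074, and Eif4enif1, at 0.10. Of the gonadotrope markers, Fshb was listed at 0 in every library and 8 of 9 were tested, among them Cga, the shared hormone alpha subunit, at 1827, 1802 and 1844 CPM in fresh, CPM being counts scaled to the library total. Of 6 markers of other pituitary cells Tshb alone was tested, at no more than 2.27 CPM and higher in RNA-Best at 0.91 (edgeR adjusted p = 0.00350), and the other 5 were at or near 0. Of 6 markers of blood, vessel and connective tissue cells, Pecam1 and Cdh5 were tested, and Ptprc and Col3a1 were at 0. The summed level of the gonadotrope list was 5280.2 to 5394 CPM in fresh and 4387 to 4525 CPM in RNA-Best, and that of the blood, vessel and connective tissue list was 191 to 193 CPM and 194 to 207 CPM. The tested markers of the latter list went opposite ways, Cdh5 being higher at 0.12 (edgeR adjusted p = 0.00228) and Pecam1 lower at -0.15 (adjusted p = 0.0150), or -0.24 with an offset for exonic length. The part of these shifts in the results was not tested. In a bulk library fewer cells of a type and less RNA per cell cannot be told apart.

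Initiation begins when eIF2, a GTPase, carries the initiator tRNA to the small ribosomal subunit, together with eIF1, eIF1A, eIF5 and the large scaffold eIF3. The cap complex, made of the cap-binding protein eIF4E, the scaffold eIF4G and the RNA helicase eIF4A, brings this assembly to an mRNA, which is then scanned up to the start codon before eIF5B helps the large subunit to join. The step is controlled through phosphorylation of eIF2 alpha, which blocks its exchange factor eIF2B, and through proteins that occupy eIF4E until mTORC1 phosphorylates them.

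More initiation factor genes were lower than higher after RNA-Best, and all of the higher ones had over 3000 bases of exons. Eif6, Eif5a and Eif3i fell most, and Eif4ebp2, Eif4g3 and Eif3a rose most. By edgeR's quasi-likelihood test at an adjusted p under 0.05, 12 of the 52 genes tested were higher in RNA-Best, 25 were lower and 15 were not called. The share called was 71.2%, against 50.8% of all genes tested, and it was 23.1% against 26% for higher and 48.1% against 24.8% for lower genes. The members were also expressed at higher levels than most genes, with a median of 126 CPM against 27.8 CPM, and so had more counts behind each value.

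The differences were small. The largest log2 fold change was 0.43 in size, the median size among the 37 called genes was 0.19, and no called member reached 0.5. The median over the 52 genes was -0.087, against -0.0074 over all genes tested. CPM values of the groups did not overlap in 39 of the 52 genes, 11 of them higher and 28 lower, which is 75% against 57.9% of all genes. Against a fold change of 1.2, glmTreat called 6 of the 52 members, the same share as the 11.5% of all genes. Eif4ebp2, Eif4g3 and Eif3a were the higher ones, and Eif6, Eif5a and Eif3i the lower ones. The 55 genes together held 0.966% ± 0.00584 of all counts in fresh and 0.926% ± 0.00730 in RNA-Best (SD, n = 3).

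**Figure D1:**
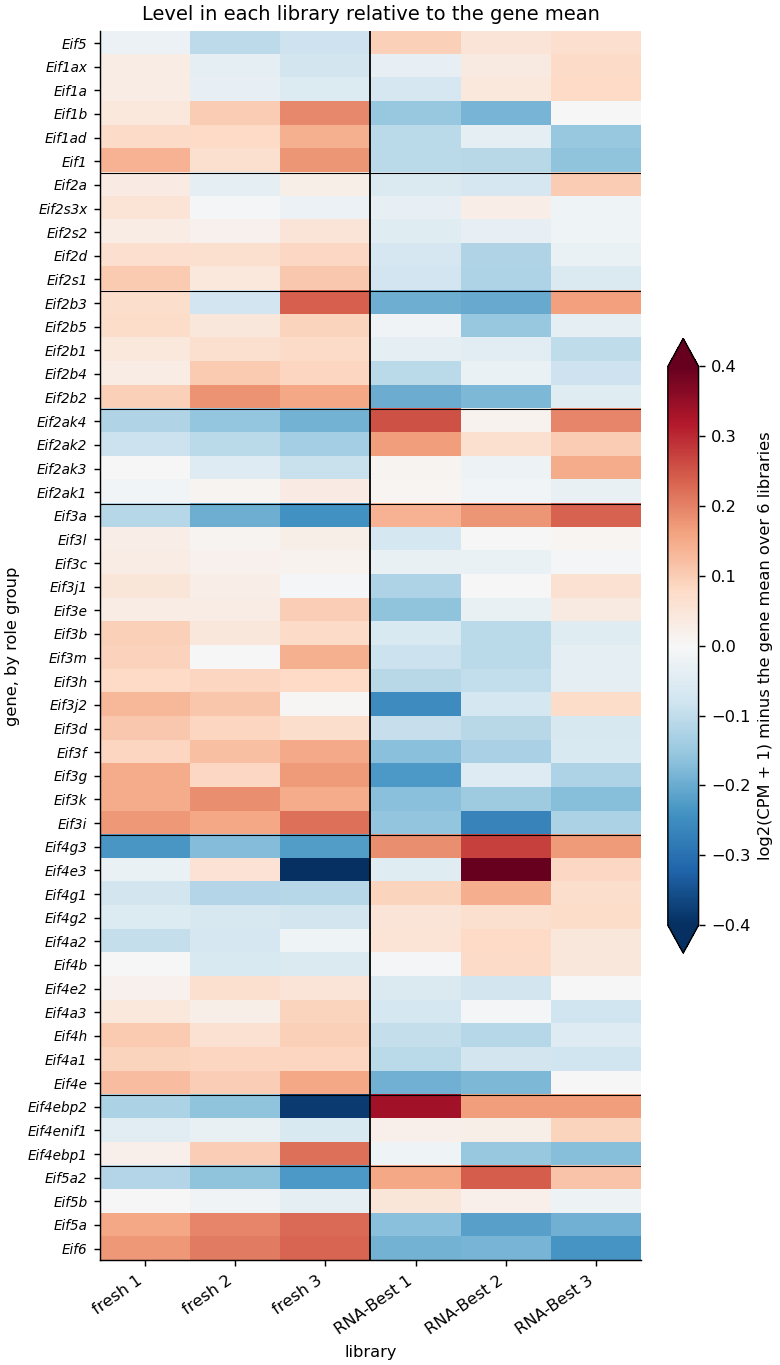
Each row is a tested initiation factor gene, each column a library, and the color gives log2(CPM + 1) minus the mean of that gene over the 6 libraries, on a scale from -0.4 to 0.4. Eif3a, Eif4g3, Eif4ebp2 and Eif5a2 are redder in all 3 RNA-Best libraries, and Eif5a, Eif6, Eif3i and Eif3k are bluer.

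Levels of different genes were compared per length, as TPM, computed here by dividing counts by exonic length and scaling each library to the same total. By this measure Eif5a, which encodes the hypusinated factor eIF5A, had the highest level, with 744 ± 14.7 TPM in fresh and 613 ± 16.5 in RNA-Best (SD, n = 3). Eif1, at 488 ± 18.8 TPM, and Eif4a1, at 488 ± 3.20 TPM, came next in fresh, and their libraries overlapped. Eif3h, at 455 ± 2.84 TPM, was the most abundant eIF3 subunit. The lowest tested members were Eif4e3, at 1.82 ± 0.625 TPM, and Eif2b3, at 6.39 ± 0.723 TPM. Neighbours in the order of levels did not overlap in 33 of 54 cases in fresh and in 24 of 54 in RNA-Best, so the order is fixed only in part. In TPM, with this limit, subunits of the same complex did not share a level: among the eIF3 genes the fresh mean ranged from 455 ± 2.84 TPM down to 18.8 ± 0.472 TPM for Eif3j1.

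**Figure D2:**
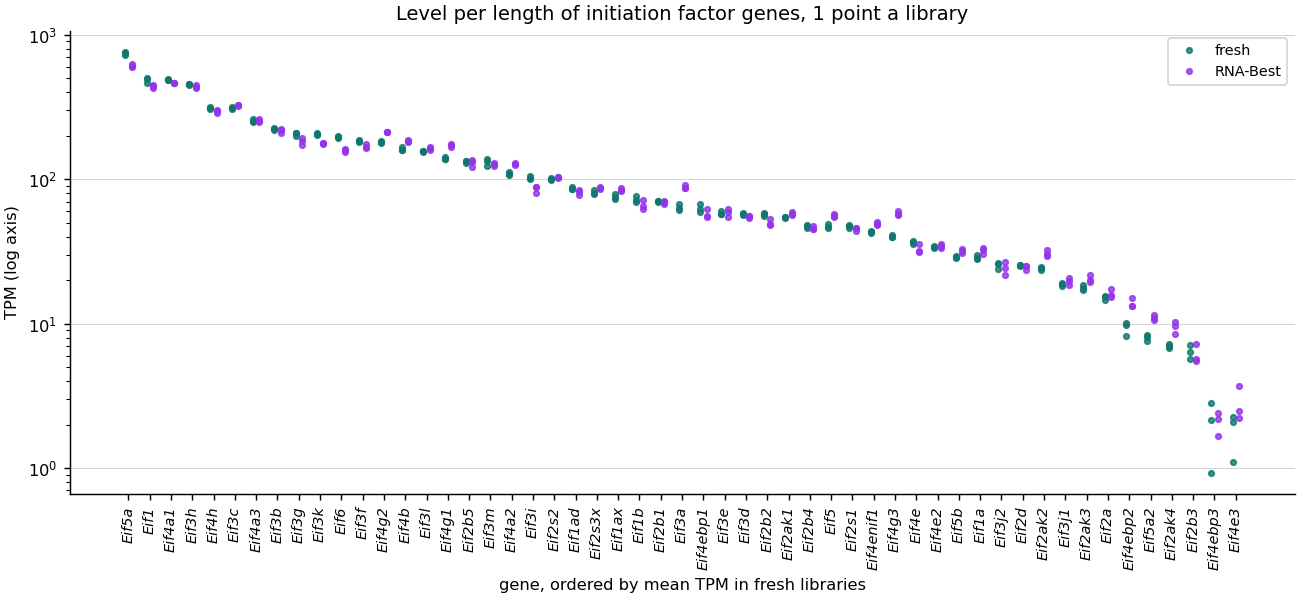
TPM on a log axis for each initiation factor gene with a fresh mean above 0.05 TPM, ordered by that mean, with 1 point a library and the groups in 2 colors. The levels run from Eif5a, at 744 TPM in fresh, to Eif4e3, at 1.82 TPM, and the shift between groups is small beside this range.

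Among the start codon scanning factors, Eif1, Eif1b and Eif1ad were lower in RNA-Best, Eif5 was higher, and Eif1a and Eif1ax were not called. Eif1, whose product keeps the scanning ribosome from settling on a wrong codon, read 411, 390.5 and 422 CPM in fresh 1, 2 and 3 and 347, 346 and 334 CPM in RNA-Best 1, 2 and 3. The groups did not overlap, and the log2 fold change was -0.25 ± 0.031 (SE, edgeR adjusted p = 1.53e-08). With an offset for exonic length in the fit Eif1 was at -0.14, still called. Its paralog Eif1b was at 30.9, 32.2 and 34.4 CPM in fresh and 26.9, 26.2 and 29.9 CPM in RNA-Best, a log2 fold change of -0.19 ± 0.063 (adjusted p = 0.0116). The call of Eif1b was lost without RNA-Best 1, at -0.16, and without RNA-Best 2, at -0.16. Eif5, the GTPase activator of eIF2, read 132, 125 and 127 CPM in fresh and 144, 139 and 141 CPM in RNA-Best, all RNA-Best libraries being higher. Its log2 fold change was 0.14 ± 0.035 (adjusted p = 7.85e-04), but it was 0.033 with an offset for exonic length in the fit and 0.024 with one for GC content, neither of them called. Eif1ax and Eif1a, which encode near-identical eIF1A proteins, gave 0.052 ± 0.035 and 0.037 ± 0.050 (adjusted p = 0.226 and 0.559), and their libraries overlapped between the groups.

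Of the genes for eIF2 and other carriers of initiator tRNA, Eif2s1 and Eif2d were lower and the other 3 tested were not called. Eif2d was at -0.13 ± 0.042 (adjusted p = 0.00862) but at -0.020, and not called, with libraries thinned to equal depth. Eif2s1 encodes eIF2 alpha, the subunit that the stress kinases phosphorylate. It read 94.2, 90.02 and 94.3 CPM in fresh and 82.8, 80.2 and 84.0 CPM in RNA-Best, with no overlap and a log2 fold change of -0.16 ± 0.040 (adjusted p = 9.33e-04). Eif2s2, for eIF2 beta, was the most abundant of them per length and read 269.7, 268 and 274 CPM in fresh and 255, 259 and 261 CPM in RNA-Best. These groups did not overlap either, yet the adjusted p was 0.0690 at a log2 fold change of -0.064 ± 0.029. Eif2s2 was called lower without a filter on low counts, at -0.11, with pseudogene counts added, at -0.085, with the length offset, at -0.17, and with the GC offset, at -0.22. Eif2a, an alternative carrier of initiator tRNA, had the highest log2 fold change of the group at 0.013 ± 0.056, and RNA-Best 3, at 39.5 CPM, was its highest library. The X-linked Eif2s3x, for eIF2 gamma, read 128, 123 and 121 CPM in fresh and 121, 126 and 122 CPM in RNA-Best, which overlapped. Its Y-linked homolog Eif2s3y was at 0 in all 6 libraries, which allows up to 3 counts in each, or 0.611 CPM in the least deep library, by counting error alone.

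The 5 subunits of the exchange factor eIF2B all had a log2 fold change below 0, and 4 were called lower, against 24.8% of all genes tested. With the length offset 1 of the 5 was called lower, against 20.5% of all genes. Eif2b2, for the beta subunit, read 41.3, 43.9 and 43.1 CPM in fresh and 33.6, 34.0 and 37.3 CPM in RNA-Best, at -0.27 ± 0.056 (adjusted p = 8.54e-05). Eif2b5, for the catalytic epsilon subunit, read 137, 135 and 139 CPM in fresh and 129, 117 and 127 CPM in RNA-Best, at -0.12 ± 0.036 (adjusted p = 0.00473). Its call was lost with the length offset, at -0.03, and with an offset for GC content, at -0.059. Both genes were lower in every RNA-Best library. Eif2b3 was not called, with 16.4, 14.8 and 18.6 CPM in fresh and 13.5, 13.4 and 17.6 CPM in RNA-Best, and its value of -0.061 ranged from -0.25 without RNA-Best 3 to 0.028 without RNA-Best 1. The calls of Eif2b1 and Eif2b4 were lost without RNA-Best 3, at -0.10 and -0.15, and that of Eif2b4 also without RNA-Best 1, at -0.14.

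The 4 eIF2 alpha kinases answer different stresses, and 2 of them were higher after RNA-Best, against 26% of all genes tested. Eif2ak4, for GCN2, the sensor of uncharged tRNA, read 21.3, 20.8 and 20.2 CPM in fresh and 27.9, 23.5 and 26.8 CPM in RNA-Best. That is a log2 fold change of 0.34 ± 0.066 (adjusted p = 4.27e-05) without overlap. With the length offset Eif2ak4 was at 0.21, still called. Eif2ak2, for the double-stranded RNA sensor PKR, rose by 0.23 ± 0.046 (adjusted p = 9.51e-05). Eif2ak3, for the endoplasmic reticulum kinase PERK, gave 0.11 ± 0.052 (adjusted p = 0.0816) and was called without fresh 1, at 0.13, but fell to 0.042 without RNA-Best 3, its highest library. Eif2ak1, for the heme-regulated kinase HRI, was the most abundant of the 4 per length, at 54.6 ± 0.575 TPM in fresh. It read 121, 123 and 125 CPM in fresh and 123, 122 and 120.0 CPM in RNA-Best, so the groups overlapped.

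The genes of the scaffold eIF3 were mainly lower. Of 14 eIF3 genes, 9 were lower in RNA-Best, 4 were not called, and Eif3a alone was higher, with a median log2 fold change of -0.15 over the 14, against 24.8% lower and 26% higher of all genes tested. Eif3a encodes the largest subunit and lies at chr19:60761117-60790658 on GRCm38. It read 232, 219 and 212 CPM in fresh and 277, 284 and 296 CPM in RNA-Best. All RNA-Best values lay above all fresh ones, by a log2 fold change of 0.37 ± 0.033 (adjusted p = 2.11e-11). Eif3i, a WD repeat subunit at chr4:129591960-129600648, went the other way, from 150.3, 149 and 155 CPM in fresh to 119, 111 and 122 CPM in RNA-Best. Its log2 fold change was -0.35 ± 0.036 (adjusted p = 5.11e-10).

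The other lower eIF3 genes were Eif3k at -0.33, Eif3g at -0.28, Eif3f at -0.23, Eif3d at -0.18, Eif3h at -0.16, Eif3m at -0.14, Eif3b at -0.14 and Eif3e at -0.092. With an offset for GC content Eif3b was at -0.041 and not called. Eif3h, a subunit of the MPN family, read 291, 293 and 291 CPM in fresh and 255, 257 and 268 CPM in RNA-Best. All 3 RNA-Best libraries were lower. The groups overlapped for Eif3e, and its call was lost without fresh 3, at -0.075, without RNA-Best 1, at -0.035, and without RNA-Best 2, at -0.095. Without RNA-Best 3 it was at -0.15, with the length offset at -0.20 and with the GC offset at -0.29, all called. Eif3h and Eif3m lost their call with the length offset, at -0.022 and -0.048. Eif3c and Eif3l were not called, each with a log2 fold change of -0.041, but were called lower without a filter on low counts, each at -0.087. That fit moved other members down as well, Eif2ak1 from -0.018 to -0.065 and Eif2ak2 from 0.23 to 0.18. Eif3j1 and Eif3j2, duplicates of the loosely bound subunit eIF3j, gave -0.043 ± 0.053 and -0.17 ± 0.073 (adjusted p = 0.517 and 0.0512). Eif3j2 was called lower without a filter on low counts, at -0.22, without fresh 3, at -0.19, and without RNA-Best 3, at -0.29, but was at -0.075 and not called without RNA-Best 1, while Eif3j1 turned to 0.013 without RNA-Best 1.

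Of the 11 tested genes for the cap complex and its helicase, 5 were higher and 4 were lower, against 26% and 24.8% of all genes tested. With the length offset 3 were higher, 5 lower and 3 not called, against 18.6% higher and 20.5% lower of all genes. The scaffold genes Eif4g1 and Eif4g3 rose. Eif4g3, at chr4:137993022-138208508 on GRCm38, read 174, 181 and 175 CPM in fresh and 233, 248 and 231 CPM in RNA-Best. The groups lay well apart, at a log2 fold change of 0.41 ± 0.032 (adjusted p = 5.55e-13). Eif4g1, for the main eIF4G, read 414, 401 and 402 CPM in fresh and 463, 481 and 457 CPM in RNA-Best, at 0.20 ± 0.028 (adjusted p = 2.81e-07), and at 0.068 (adjusted p = 0.0453) with an offset for exonic length. Eif4g2, whose product lacks the eIF4E-binding part, gave 0.13 ± 0.026 (adjusted p = 1.01e-04), but -0.11 with the length offset.

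The gene of the cap-binding protein itself was lower. Eif4e read 87.1, 85.7 and 89.1 CPM in fresh and 69.8, 70.5 and 79.8 CPM in RNA-Best, at -0.23 ± 0.044 (adjusted p = 5.05e-05), although RNA-Best 3 lay closer to fresh than the other RNA-Best libraries did. Eif4e2, a cap-binding protein linked to repression, read 100.03, 103 and 103 CPM in fresh and 94.9, 94.0 and 98.7 CPM in RNA-Best, without overlap but at an adjusted p of 0.0743. It was called lower without a filter on low counts, at -0.13, and with the length offset, at -0.22. Eif4e3 was the lowest tested member, with 2.09, 2.27 and 1.11 CPM in fresh and 2.04, 3.46 and 2.33 CPM in RNA-Best, and its log2 fold change of 0.27 ± 0.22 was not called, with an adjusted p of 0.332. With single libraries left out this value ranged from 0.12 to 0.42. Eif4e1b, a homolog known from oocytes, had 1 count in all.

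The helicase genes divided as well. Eif4a1 read 843, 841 and 840.4 CPM in fresh and 734, 753 and 749 CPM in RNA-Best, a log2 fold change of -0.18 ± 0.026 (adjusted p = 6.34e-07). Eif4a2 read 226, 230.4 and 239 CPM in fresh and 251, 255 and 249 CPM in RNA-Best, at 0.12 ± 0.031 (adjusted p = 0.00104), though with an offset for GC content it was at -0.018. Without a filter on low counts Eif4a2 was at 0.075, and its call was lost in both fits. Thus every RNA-Best library was below fresh for Eif4a1 and above fresh for Eif4a2. Eif4h and Eif4b, cofactors of the helicase, gave -0.17 (adjusted p = 1.91e-06) and 0.072 (adjusted p = 0.0438). With the GC offset Eif4h was at -0.078, still called. Eif4a3, a core protein of the exon junction complex, fell by 0.11 (adjusted p = 0.00540), a call lost without RNA-Best 3, at -0.089, and with the length offset, at 0.0056. The call of Eif4b was lost without fresh 2 or 3 and without RNA-Best 2 or 3, at 0.058 to 0.069, and its groups overlapped. That call was also lost without a filter on low counts, at 0.026.

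Among the proteins that restrain eIF4E, Eif4ebp2 was higher and Eif4ebp1 lower after RNA-Best. Eif4ebp2, at chr10:61428491-61452661 on GRCm38, had the highest log2 fold change of all 52 genes. It read 23.0, 22.4 and 19.1 CPM in fresh and 32.1, 28.5 and 28.4 CPM in RNA-Best, a 1.34-fold rise and 0.43 ± 0.070 on the log2 scale (adjusted p = 3.44e-06). Fresh 3 was its lowest library and RNA-Best 1 its highest. Eif4ebp1 read 51.3, 54.1 and 59.0 CPM in fresh and 49.9, 45.4 and 44.8 CPM in RNA-Best, at -0.21 ± 0.055 (adjusted p = 0.00152). The groups did not overlap, but the call was lost without RNA-Best 3, at -0.16. Eif4enif1, which carries eIF4E into the nucleus, gave 0.094 ± 0.036 (adjusted p = 0.0282), a call lost without fresh 1, at 0.091, and without RNA-Best 3, at 0.066. That call was also lost without a filter on low counts, at 0.047.

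The late acting factors held both the strongest falls and a rise. Eif6, whose product keeps the large subunit from joining early, lies at chr2:155819832-155826925 and read 205, 210.3 and 214 CPM in fresh and 159.7, 160.0 and 155 CPM in RNA-Best. It had the lowest log2 fold change of the set, -0.41 ± 0.033, or 1.33-fold lower (adjusted p = 8.08e-13). Eif5a, at chr11:69916714-69921958, read 686, 705 and 720.3 CPM in fresh and 548, 530.1 and 539 CPM in RNA-Best, at -0.38 ± 0.028 (adjusted p = 9.41e-14). In both genes the groups were far apart beside the spread within them. The paralog Eif5a2 read 16.6, 16.1 and 15.3 CPM in fresh and 20.2, 21.6 and 19.7 CPM in RNA-Best, and rose by 0.32 ± 0.073 (adjusted p = 3.55e-04), a call lost with the GC offset, at 0.17. Eif5b, for the GTPase of subunit joining, was at 114, 113 and 111 CPM in fresh and 118, 116 and 113 CPM in RNA-Best, with overlap and an adjusted p of 0.565.

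**Figure D3:**
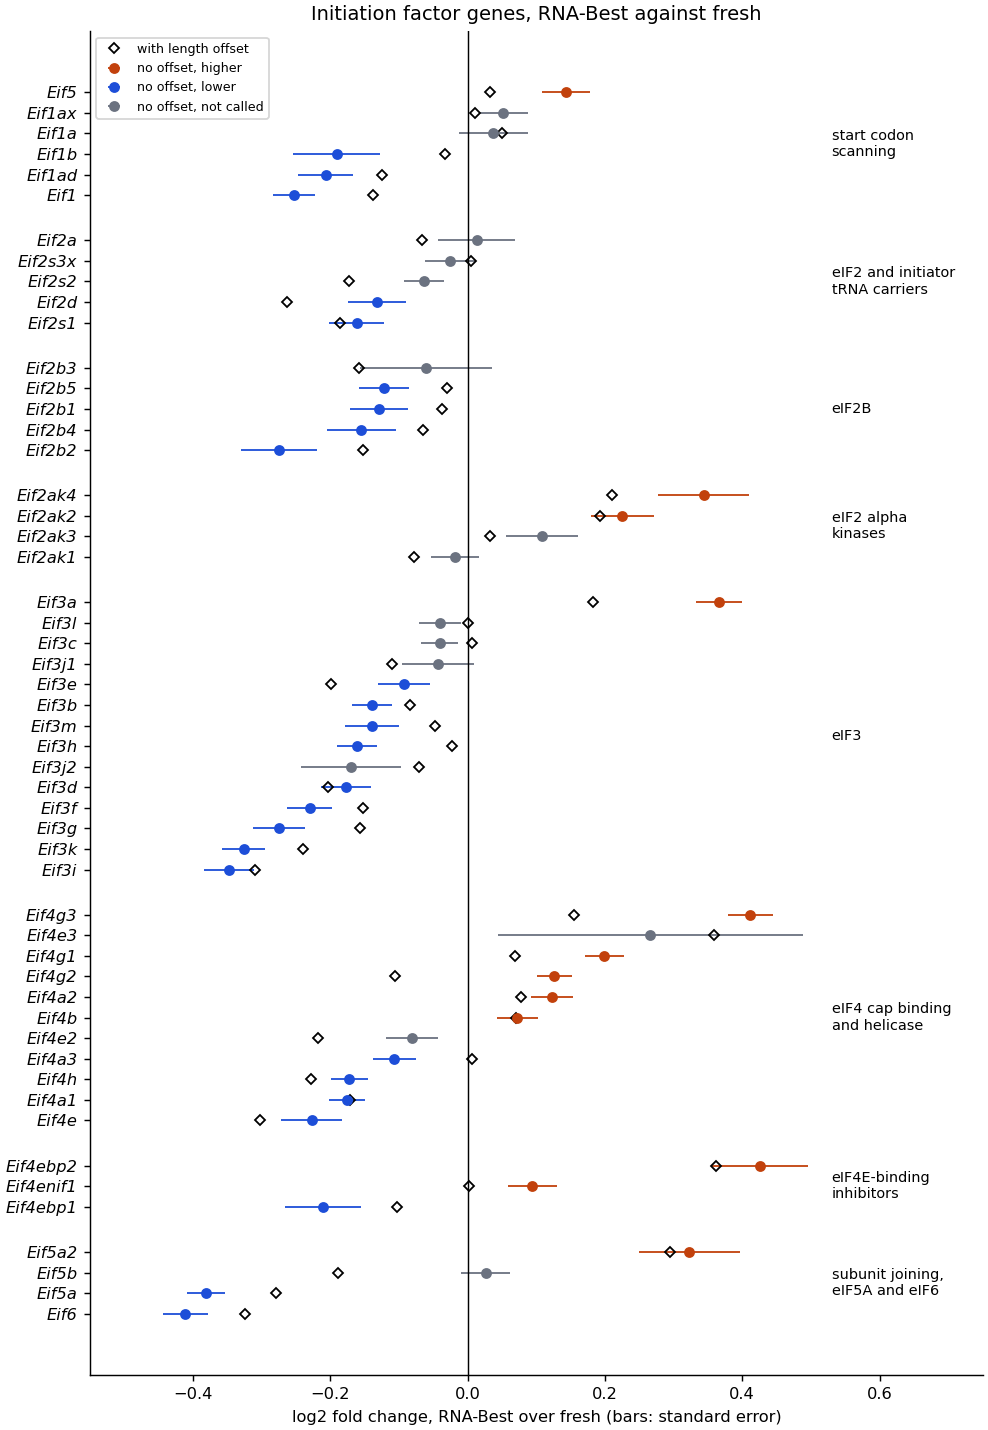
Filled points give the log2 fold change of RNA-Best over fresh for the 52 tested initiation factor genes in 8 role groups, with bars of 1 standard error and color by call, and open diamonds the value with a length offset. Eif3a stands right of 0 among eIF3 genes that lie left of it, and for Eif4g2 and Eif5b the diamond lies on the other side of 0 from the point.

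Gene length moved with the fold change, in all genes and in the initiation factors. The exonic length is the summed length of all annotated exons of a gene. It can exceed the length of the mRNA, so length bins and length offsets are uncertain for such genes. Over the 52 members the Spearman correlation of log2 fold change with exonic length was 0.63, as a description over genes that share the same libraries, and over 14677 genes it was 0.52. Of 18 members of up to 3000 bases, 16 were lower and 0 higher, against 40.7% lower and 6.75% higher of all genes of that length. Of 18 members between 3000 and 6000 bases, 5 were higher and 6 lower, against 20.5% and 22.5%. Of 16 members above 6000 bases, 7 were higher and 3 lower, against 59% and 6.31%.

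The medians followed the same order. Up to 3000 bases the members' median was -0.20 against -0.17 of all genes, between 3000 and 6000 bases it was -0.033 against -0.0081, and above 6000 bases it was 0.060 against 0.20. The 3 lower members above 6000 bases were Eif4e, with 6008 bases, Eif2d, with 7374, and Eif3e, with 6719. Their protein-coding transcripts held 6094, 3956 and 1406 different stretches of read length. Eif2d and above all Eif3e may thus have shorter mRNAs than their bin says, and their values with the length offset are uncertain. Eif5b, with 9753 bases, and Eif4g2, with 10166, lay at 0.026 and 0.13, below the median of 0.20 of all genes above 6000 bases.

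**Figure D4:**
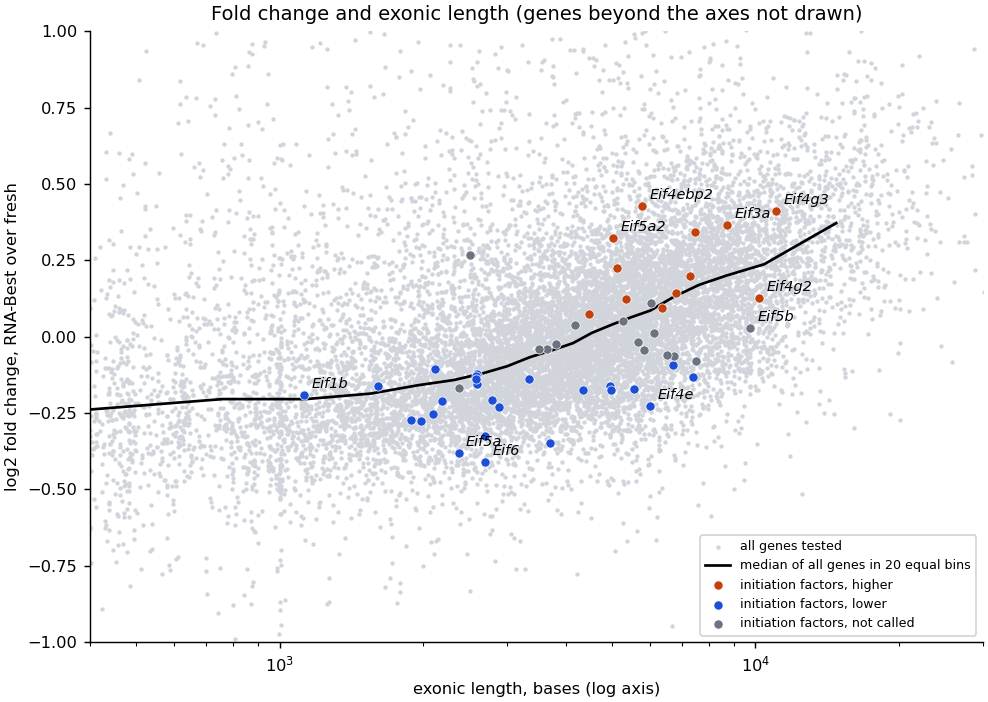
Log2 fold change of RNA-Best over fresh against exonic length in bases on a log axis, with all tested genes in grey, their median in 20 equal bins as a line and the initiation factors in color by call. Short members lie mainly below 0 and long ones on both sides of it, with a median of 0.060 against 0.20 of all genes above 6000 bases, and Eif4ebp2 lies above the line while Eif6, Eif5a and Eif4e lie below it.

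With an offset for exonic length in the edgeR fit, 8 members were higher, 21 lower and 23 not called, against 18.6% higher and 20.5% lower of all genes. The correlation with length over the members was then 0.084. Of the 37 genes called without the offset, 25 were called in the same direction with it, 11 were not called, and Eif4g2 was called in the opposite direction, at -0.11 (adjusted p = 0.00115). The 11 were Eif1b, Eif5, Eif2b1, Eif2b4, Eif2b5, Eif3h, Eif3m, Eif4a3, Eif4b, Eif4ebp1 and Eif4enif1. Among them the log2 fold change of Eif4b hardly moved, from 0.072 to 0.07 (adjusted p = 0.0585), while that of Eif3h went to -0.022. Eif5b, Eif2s2 and Eif4e2 were called lower with the offset only, at -0.19, -0.17 and -0.22.

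The strongest differences kept their call under the length offset, at smaller sizes. Eif3a moved from 0.37 to 0.18 and Eif4g3 from 0.41 to 0.16, whereas Eif4ebp2 moved from 0.43 to 0.36. Eif5a2, whose call was lost with the GC offset, moved from 0.32 to 0.29 with the length offset, Eif6 from -0.41 to -0.32, Eif5a from -0.38 to -0.28 and Eif3i from -0.35 to -0.31. Of the 5 eIF2B genes, Eif2b2 remained called as lower, at -0.15. Of the eIF3 genes, 1 was higher and 7 lower with the offset, against 18.6% and 20.5% of all genes. With an offset for GC content in place of length, 9 members were higher and 26 lower, and Eif1b, Eif5, Eif2b4, Eif2b5, Eif3b, Eif4a2, Eif4a3, Eif4g2 and Eif5a2 lost their call. The shares of all genes with that offset were 24.9% higher and 22.6% lower. A further 7 members were called with it but not without it, namely Eif2s2 at -0.22, Eif3j2 at -0.31, Eif3j1 at -0.15, Eif2s3x at -0.12, Eif4e2 at -0.094, Eif1ax at -0.094 and Eif2ak3 at 0.14. The part of transcript length or RNA integrity in these differences was not tested.

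Reads of some members can be shared with copies elsewhere in the genome. In annotated transcripts, 17 of the 55 members, 16 of them tested, had at least 1 window of the length of a read that also occurs in another gene. The share of such windows was highest in Eif3j2 at 83.9%, Eif4ebp3 at 62.7%, Eif4a1 at 60.8%, Eif3j1 at 36.0% and Eif2s3x at 34.5%. Parts of counts, which arise when a read is divided between places, were present in 38 members.

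Eif4a1 shows how close such a copy can be. Its coding sequence of 1218 bases matches the processed pseudogene Eif4a-ps4 at 1217 bases, with 1 mismatch, and matches its paralog Eif4a2 at 929 of 1182 aligned bases, or 78.6%. Of the windows of read length in the Eif4a1 coding sequence, 91.0% occur in the pseudogene and 0 in Eif4a2. The stretch printed first, read from the GRCm38 genome 5′ to 3′, is as long as a read and lies in exon 3 of 11 of Eif4a1 on the minus strand (chr11:69670647-69670747), in Eif4a-ps4 on the plus strand (chr1:60704004-60704104) and in exon 3 of Eif4a2 on the plus strand (chr16:23108719-23108819). Capitals mark the 20 bases at which Eif4a2 differs from Eif4a1.
Eif4a1: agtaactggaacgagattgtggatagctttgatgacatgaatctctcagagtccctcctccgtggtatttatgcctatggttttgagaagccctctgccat
Eif4a-ps4: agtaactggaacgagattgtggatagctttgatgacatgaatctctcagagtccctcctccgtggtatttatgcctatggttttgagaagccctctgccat
Eif4a2: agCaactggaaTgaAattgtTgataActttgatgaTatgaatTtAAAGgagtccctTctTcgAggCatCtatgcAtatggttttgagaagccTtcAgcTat
A read from this stretch could come from Eif4a1 or from the pseudogene, but differs from Eif4a2 at many bases.

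The lone mismatch lies in exon 6 of Eif4a1 (chr11:69668694-69668753), at chr1:60704446-60704505 in the pseudogene, and the same stretch of Eif4a2 is at chr16:23110234-23110293. Capitals again mark bases that differ from Eif4a1, which are 1 in the pseudogene and 9 in Eif4a2.
Eif4a1: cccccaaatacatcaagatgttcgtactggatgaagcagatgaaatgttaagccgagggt
Eif4a-ps4: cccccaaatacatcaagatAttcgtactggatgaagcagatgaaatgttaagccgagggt
Eif4a2: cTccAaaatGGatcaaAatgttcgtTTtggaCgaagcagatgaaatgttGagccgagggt
Reads over this base alone can tell the coding sequence of Eif4a1 from its copy.

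The pseudogene was counted at 6540 in fresh 1 and at 752 in RNA-Best 2, and its count was 18.9% to 20.7% of that of Eif4a1 in every library. Its log2 fold change was -0.12 (edgeR adjusted p = 0.00385), near that of Eif4a1. When the counts of processed pseudogenes with a shared window were added to the member, Eif4a1 was still lower and Eif2s3x turned from -0.026 to 0.069, with an adjusted p of 0.0932.

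Ratios of paralogs within a library do not depend on scaling. Of 8 pairs compared by a two-sided exact permutation test, which cannot give a p below 0.1 for 3 libraries against 3, 6 had groups that did not overlap (p = 0.1, adjusted p = 0.133 over the 8 pairs). The log2 ratio of Eif5a to Eif5a2 was 5.37, 5.45 and 5.56 in fresh and 4.76, 4.61 and 4.77 in RNA-Best, a difference of -0.75. That of Eif4ebp1 to Eif4ebp2 was 1.16, 1.27 and 1.62 in fresh and 0.64, 0.67 and 0.66 in RNA-Best, a difference of -0.70. In these pairs the shorter gene by exonic length, Eif5a or Eif4ebp1, lost counts relative to the longer.

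The ratio of Eif4a1 to Eif4a2 was 1.90, 1.87 and 1.81 in fresh and 1.55, 1.56 and 1.59 in RNA-Best. As a share of both counts, Eif4a1 went from 78.4% ± 0.502 to 74.7% ± 0.263 (SD, n = 3). The difference was -0.22 for Eif4g1 to Eif4g3, -0.16 for Eif4e to Eif4e2 and 0.13 for Eif3j1 to Eif3j2, and Eif4e held 46.1% of its pair in fresh and 43.3% in RNA-Best. Since 83.9% of the read-length windows of Eif3j2 also occur in Eif3j1, the ratio of that pair is uncertain. Of those of Eif4a1, 60.8% also occur in Eif4a-ps4, whose counts were not added to the ratio. These counts were 18.9% to 20.7% of those of Eif4a1, so the share of Eif4a1 in its pair is uncertain too. Eif1 to Eif1b (difference -0.022, p = 0.8) and Eif1ax to Eif1a (0.014, p = 0.6) had overlapping groups in the same exact permutation test, and Eif2s3x to Eif2s3y could not be compared because Eif2s3y was at 0.

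**Figure D5:**
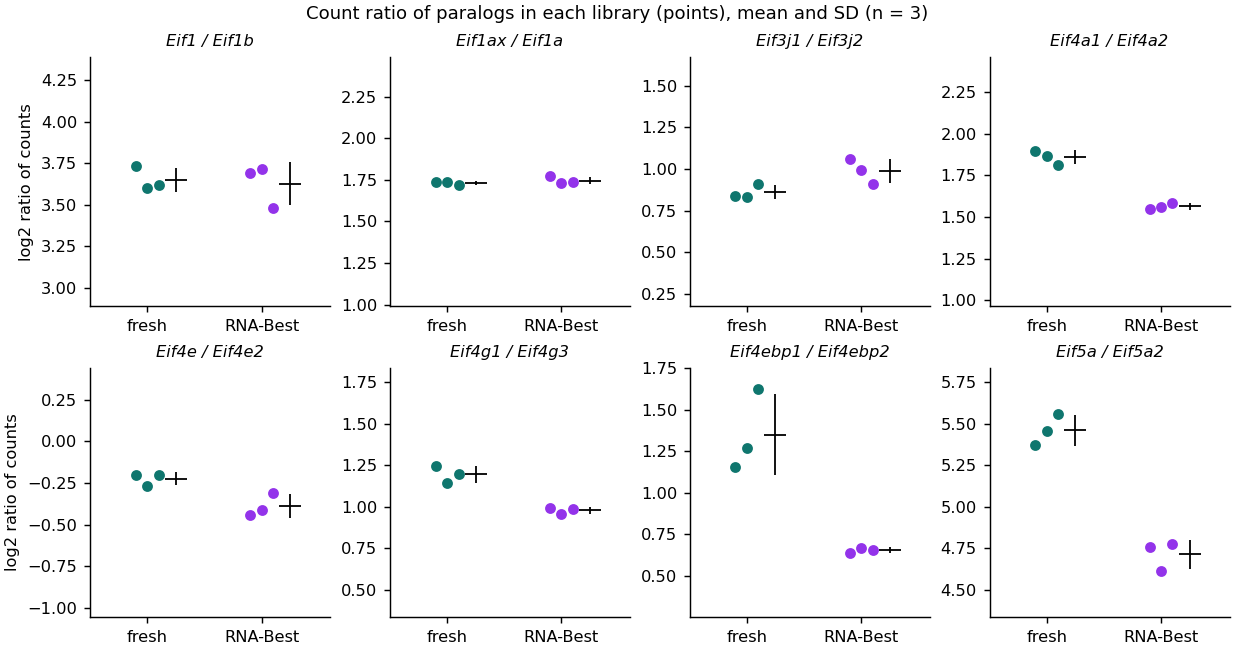
Each panel gives the log2 ratio of the counts of 2 paralogs, with 1 point a library, and the mean and SD over 3 libraries as a cross beside each group. All panels span the same range of 1.5 log2 units, so that the shifts of Eif5a/Eif5a2 and Eif4ebp1/Eif4ebp2 stand out and Eif1/Eif1b and Eif1ax/Eif1a show overlapping groups.

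Many mRNAs of the translation machinery begin with a terminal oligopyrimidine tract, a C at the cap followed by a run of C or T, through which mTORC1 controls their translation. Transcript starts from RefSeq (build GRCm38.p6) were found for 43 of the members, with 56 starts. A C followed by at least 4 bases of C or T at the annotated start, on the sense strand, was present at 2 of the 56 starts, or 3.571%, those of Eif3f and Eif2s3x, against 823 of 32851 starts, or 2.505%, of all genes. The windows of 30 bases around these starts are chr7:108934405-108934434 on the plus strand for Eif3f and chrX:94212632-94212661 on the minus strand for Eif2s3x, with the run in capitals.
Eif3f: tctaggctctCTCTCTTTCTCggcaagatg
Eif2s3x: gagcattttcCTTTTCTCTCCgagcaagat
Of these genes Eif3f was lower in RNA-Best, at -0.23 ± 0.033 (edgeR adjusted p = 3.81e-07), and Eif2s3x was not called. The annotated start can differ from the start used in LβT2 cells, and other letters in this window say nothing of a tract elsewhere.

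Factors that work with the initiation factors but carry other symbols were described by counts. Of 34 initiation partners, 13 were higher, 9 lower and 12 not called, with a median log2 fold change of 0.013, against 26% higher and 24.8% lower of all genes tested. The highest were Gigyf2, a partner of Eif4e2, at 0.34 (adjusted p = 7.92e-09), and Larp4b, an RNA-binding protein, at 0.33 (adjusted p = 2.10e-08). The lowest were Denr, which forms a recycling factor, at -0.27 (adjusted p = 1.08e-05), and Mcts2, from the family of its partner, at -0.26 (adjusted p = 0.00242). Of the 34, 5 were higher and 9 lower with the length offset, against 18.6% and 20.5% of all genes. Larp4b and Denr were still called with it, at 0.16 and -0.35, and Gigyf2, a gene of 14216 bases, was then at 0.014 and Mcts2 at -0.089, neither of them called. Of 3 mitochondrial initiation genes, Mtif2 was higher at 0.21 (adjusted p = 0.00627) and the other two were not called.

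Of 19 genes of elongation, termination and hypusination, 9 were lower and 0 higher, against 24.8% and 26% of all genes tested. With the length offset 5 were lower, 1 higher and 13 not called, against 20.5% lower and 18.6% higher of all genes. Eef1b2 and Dhps had the lowest values, at -0.35 (adjusted p = 1.15e-10) and -0.26 (adjusted p = 0.0127). Dhps and Dohh make the hypusine of eIF5A, and Dohh was lower at -0.26 (adjusted p = 6.43e-06), while with the length offset Dhps was not called, at -0.16, and Dohh was still lower, at -0.15. Eef1a1, which brings aminoacyl-tRNA to the ribosome, was not called, at -0.029 ± 0.027, but was called higher with the length offset, at 0.069 (adjusted p = 0.0446). Dohh, Eef1a1 and Atf4 were named after their values were seen.

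Downstream of the eIF2 alpha kinases, 12 of 22 targets of the integrated stress response were lower, 3 higher and 7 not called, with a median of -0.16, against 24.8% lower and 26% higher of all genes tested. Phgdh and Trib3 were lowest, at -0.33 (adjusted p = 2.01e-07) and -0.28 (adjusted p = 2.54e-06), and Slc7a1 and Vldlr were highest, at 0.31 (adjusted p = 1.18e-07) and 0.28 (adjusted p = 4.94e-09). Atf4, the factor whose translation rises when eIF2 alpha is phosphorylated, was lower at -0.19 ± 0.027 (adjusted p = 2.09e-07). With the length offset 12 targets were lower and 0 higher, against 20.5% and 18.6% of all genes. Slc7a1 and Vldlr were then at 0.043 and 0.05, not called, and Phgdh, Trib3 and Atf4 were still called lower, at -0.23, -0.17 and -0.089.

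Of 16 genes of the mTORC1 pathway, which controls the eIF4E-binding proteins, 7 were higher, 4 lower and 5 not called, against 26% higher and 24.8% lower of all genes tested. Sesn3, an inhibitor of the pathway, and Deptor, an mTOR-binding inhibitor, were highest, at 0.84 (adjusted p = 6.82e-15) and 0.45 (adjusted p = 5.61e-04). Tbc1d7, a subunit of the TSC complex, and Ddit4, a stress-induced inhibitor, were lowest, at -0.38 (adjusted p = 7.29e-04) and -0.28 (adjusted p = 2.08e-06). With the length offset 6 were higher and 7 lower, against 18.6% and 20.5% of all genes. Sesn3, a gene of 15269 bases, was then at 0.49, Deptor at 0.26 and Ddit4 at -0.15, all still called.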

How the data were processed

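Poly(A) RNA-seq libraries of GnRH-treated LβT2 cells, 3 fresh and 3 RNA-Best, were analysed. The authors aligned single reads with STAR 2.5.1b to mm10 and counted them with featureCounts 1.5.0-p1, and deposited unscaled estimated counts. In a library, 9.36% to 16.3% of the genes had a count that was not whole (tolerance 0.001); the setting that divides reads is not given in the sources used here. Symbols and exonic lengths, taken from a later GENCODE annotation of GRCm38 than the authors used, were found for 46488 of 47069 genes.

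Counts were rounded and tested in R 4.3.3 with edgeR 4.0.16 (TMM scaling, filterByExpr with a minimum count of 10, quasi-likelihood test, Benjamini-Hochberg adjustment over all 14736 genes). Standard errors are the log2 fold change divided by the root of F. Length and GC offsets were fitted by loess within each library, at a span of 0.5. Paralog ratios used a pseudocount of 0.5. Alternatives used limma 3.58.1, DESeq2 1.42.0, glmTreat, other filters, thinning, a replicate block, single libraries left out and, chosen after seeing the data, pseudogene counts added. The fits were tested on simulated data. With 50 genes changed at each size, the main fit recovered 27 at 1.2-fold, 42 at 1.5-fold, 47 at 2-fold and 49 at 4-fold. It made 11 false calls among 14595 genes. A member that was not called can thus still have changed.

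Members and lists were chosen with earlier results of these data known. Values in each library are given, per role group, for the highest and lowest log2 fold change, the highest TPM and the paralog pairs; from each partner list, the 2 highest and 2 lowest called genes are named. Depth was 4909418 to 47438746 counts, and the limit for a count of 0 covers counting error only, whereas SDs and standard errors include the spread between libraries. Single-cell data were not analysed here.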

Additional observations from a re-analysis of the deposited data

Results flagged for a closer look

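The 7 processed pseudogenes with an Eif symbol, which are not members of the set, held 22045 counts over the 6 libraries, above the 3 counts that a count of 0 allows. Eif4a-ps4, the copy of Eif4a1, held 20620 of them, or 93.5%, and the next highest were Eif3s6-ps1 with 561 and Eif5al3-ps with 441.0. This result was singled out because these genes had signal although they are outside the set compared. Eif4a-ps4 is described beside Eif4a1, and pseudogene counts enter 1 of the alternatives. How many of these counts came from reads of the protein-coding genes was not tested.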

How the results depend on the processing

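Against a fold change of 1.2, glmTreat called 6 genes, 3 higher and 3 lower. Under all other alternatives the counts of calls stayed within 1.5 times, at 29 to 39 called, 8 to 12 higher and 20 to 30 lower, and the median stayed below 0. The DESeq2 Wald test did not call Eif2b1, Eif2b4, Eif3e, Eif4b and Eif4enif1 (adjusted p = 0.062, 0.061, 0.0998, 0.072 and 0.082). With limma-voom the call of Eif3e was lost (adjusted p = 0.05002). Without single libraries 32 to 37 genes were called. Same-numbered libraries did not deviate together (correlations -0.0084, 0.012 and -0.0077), and the highest correlation of a fresh with an RNA-Best library was 0.039. The replicate block left 12 higher and 25 lower, and turned the log2 fold change of Eif2a to -0.013. Eif2b3 was called lower with the block and the length offset, at -0.27, and with the block and the GC offset, at -0.22. With the block, Eif4e3 was called higher with the length offset, at 0.56, and Eif2a lower with the GC offset. The cause of the changes of sign listed here was not tested.

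With the length offset the log2 fold change turned to 0.0056 for Eif2s3x, -0.067 for Eif2a, 0.0069 for Eif3c, 0.00023 for Eif3l, 0.0056 for Eif4a3, -0.11 for Eif4g2 and -0.19 for Eif5b. With that offset and the replicate block it was 0.011 for Eif2s3x, -0.096 for Eif2a, 0.0068 for Eif3c, 0.0053 for Eif4a3, -0.11 for Eif4g2, -0.0021 for Eif4enif1 and -0.19 for Eif5b. With the GC offset it was -0.13 for Eif2a, -0.018 for Eif4a2, -0.10 for Eif1a, -0.094 for Eif1ax and -0.070 for Eif5b, and with the replicate block added -0.16, -0.021, -0.11, -0.096 and -0.064. Without a filter it was -0.034 for Eif2a, -0.0096 for Eif1a and -0.020 for Eif5b. That fit had 9 members higher and 30 lower, with a median of -0.12. The calls of Eif4a2, Eif4b and Eif4enif1 as higher were lost in it, at 0.075, 0.026 and 0.047. With pseudogene counts added the log2 fold change was 0.069 for Eif2s3x.

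Leaving out single libraries changed the sign of Eif2a (range -0.062 to 0.050), Eif2b3 (-0.25 to 0.028), Eif3j1 (-0.11 to 0.013), Eif1a (-0.0080 to 0.083) and the Eif1 to Eif1b ratio (-0.066 to 0.053). No other member or paralog pair changed sign under the alternatives run. With 3 libraries a group and a least deep library of 4909418 counts, Eif2b3 and Eif4e3 were the least precise members, with standard errors of 0.096 and 0.22 on the log2 scale.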
